A study of Mus musculus with 2 samples.

Results

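The 47 genes described here make up the autophagy and mitophagy machinery of mouse erythroblasts, the nucleated bone marrow precursors of red blood cells. They were chosen by symbol, from the receptors that mark mitochondria to the lysosomal membrane and the transcription factors of the pathway, and the rule that names them uses no measured value. All 47 were found among 43346 genes, of which 21461 are nuclear protein-coding genes. The RNA was total RNA from primary erythroblasts of C57BL/6J males, 5 to 6 weeks old, freed of ribosomal RNA and made into libraries with a ScriptSeq kit from 100 ng each. The series holds 1 group with 2 biological replicates and no second condition, so the data answer how much of each gene these cells held and how closely the libraries match. The replicates are separate biosamples that point to 1 donor record, and their spread may thus be technical in part. Their stated size ranges also differ, 200 to 764 in replicate 1 and 138 to 1000 in replicate 2, with no unit given.

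Macroautophagy encloses cell material in a double membrane and delivers it to the lysosome. The ULK complex starts it, a class III PI3-kinase complex marks the membrane with lipid, WIPI, ATG2 and ATG9 proteins supply and extend the membrane, and conjugation enzymes attach proteins of the ATG8 family, to which cargo receptors bind. Maturing red cells use this route to clear their mitochondria, and in mice the mitochondrial receptor BNIP3L, also called NIX, is needed for that clearance. FOXO3 is a transcription factor known for its part in the maturation of mouse red cell precursors.

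Replicate 1 held 37312621 counts and replicate 2 held 22464713, of which the members took 0.576% and 0.526%. A count of 0 allows up to 0.0804 CPM in replicate 1 and 0.134 CPM in replicate 2, counting error only. Nuclear protein-coding genes held only 11.3% and 6.89% of the deposited TPM, a unit that corrects for transcript length. Levels are therefore given as coding-scaled TPM, in which these genes sum to 1000000 in each library, as replicate 1 then replicate 2 or as mean ± SD with n = 2. A gene counts as detected here when each library had 1 or more deposited TPM. All 8 erythroid markers were detected, and their summed level was 335062 and 278165 coding-scaled TPM. All 8 neutrophil markers were detected too, with a sum of 20138 and 19681, led by S100a8 at 8719 and 7420. Of 6 macrophage markers 5 were detected, with a sum of 207 and 189. Megakaryocyte markers, 2 of 5 detected, summed to 120.0 and 143.6. B cell markers, with none of 4 detected, summed to 8.62 and 3.77, and T and NK cell markers, 1 of 4 detected, to 24.6 and 16.1, with Cd3d and Trac at 0 counts. The part of RNA from other cells in the members' levels was not tested. In such bulk RNA, fewer cells of a type and less RNA per cell cannot be told apart.

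Promoters of 40 members were matched in RefSeq (build GRCm38.p6). Becn1, Atg16l1, Rb1cc1, Bnip3l, Map1lc3a, Pik3c3 and Atg12 were not matched. The hexamer CACGTG, the core of the element to which the members TFEB and TFE3 bind, stood in the 250 bases before an annotated RefSeq start in 5 of the 40 (12.5%), against 6.86% of 27025 genes. It reads the same on both strands. In Atg7 that start lies 27999 bases inside the gene as GENCODE M21 annotates it, so its window is not shown. The windows of the other 4, whose starts lie at most 44 bases from the 5′ end of the gene there, are shown because they carry this shared letter pattern, with the hexamer in capitals, 5′ to 3′ on the strand of the gene.
Atg3, chr16:45158715-45158783, plus strand: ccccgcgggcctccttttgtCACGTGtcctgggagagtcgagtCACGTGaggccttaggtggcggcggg
Atg5, chr10:44268305-44268338, plus strand: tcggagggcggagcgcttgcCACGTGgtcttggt
Bnip3, chr7:138909589-138909634, minus strand: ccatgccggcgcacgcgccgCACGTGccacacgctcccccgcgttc
Lamp1, chr8:13159080-13159160, plus strand: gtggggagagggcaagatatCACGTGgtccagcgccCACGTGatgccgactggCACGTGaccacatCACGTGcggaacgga
The Lamp1 window holds 4 copies, between 61 and 10 bases before the start, and the Atg3 window holds 2. The hexamer with GT directly before it and AC directly after it was in none of the 40 and in 0.270% of all genes. The FOXO-type motif GTAAACA was in none of the 40 on either strand, against 3.54% of all genes. The motif AGATAA, of the type that GATA1 binds, was in 2 of the 40 (5.0%) on either strand, Atg4a and Atg4d, against 11.4% of all genes. In 10 of the 40, Atg4a among them, a RefSeq start was more than 500 bases from the 5′ end of the gene in GENCODE M21. These are letter matches in short windows and say nothing of binding.

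Most of the machinery was present, and a few genes stood far above the rest. Of the 47 members, 31 were detected. The background was 20.3% of 21461 nuclear protein-coding genes. The median member stood at 32.6 and 36.8 coding-scaled TPM, against 7.02 and 6.96 for the 12895 nuclear protein-coding genes with any TPM. Among those genes the median member was at percentile 80.5. The top 10% held 18 members and the top 25% held 28, while 9 members stood below the median gene. Levels ran from 0.145 for Ulk3 to 1231 for Bnip3l, with 16 members above 100, 19 from 10 to 100 and 12 under 10. Of 16 members not detected, 11 were under 1 TPM in both libraries, 4 reached 1 TPM only in replicate 1 and 1 only in replicate 2. The limit was stricter in replicate 2, where nuclear protein-coding genes held less of the deposited TPM. Atg101 passed it only in replicate 1, at 1.64 and 0.97 TPM, though its coding-scaled levels were 14.6 and 14.1. A member called not detected is not thereby absent, as Atg2b had 1229 and 641 counts. With the limit at 1 coding-scaled TPM, 45 of 47 passed, against 43.9% of the nuclear protein-coding genes, and Ulk3 and Map1lc3a did not.

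**Figure D1:**
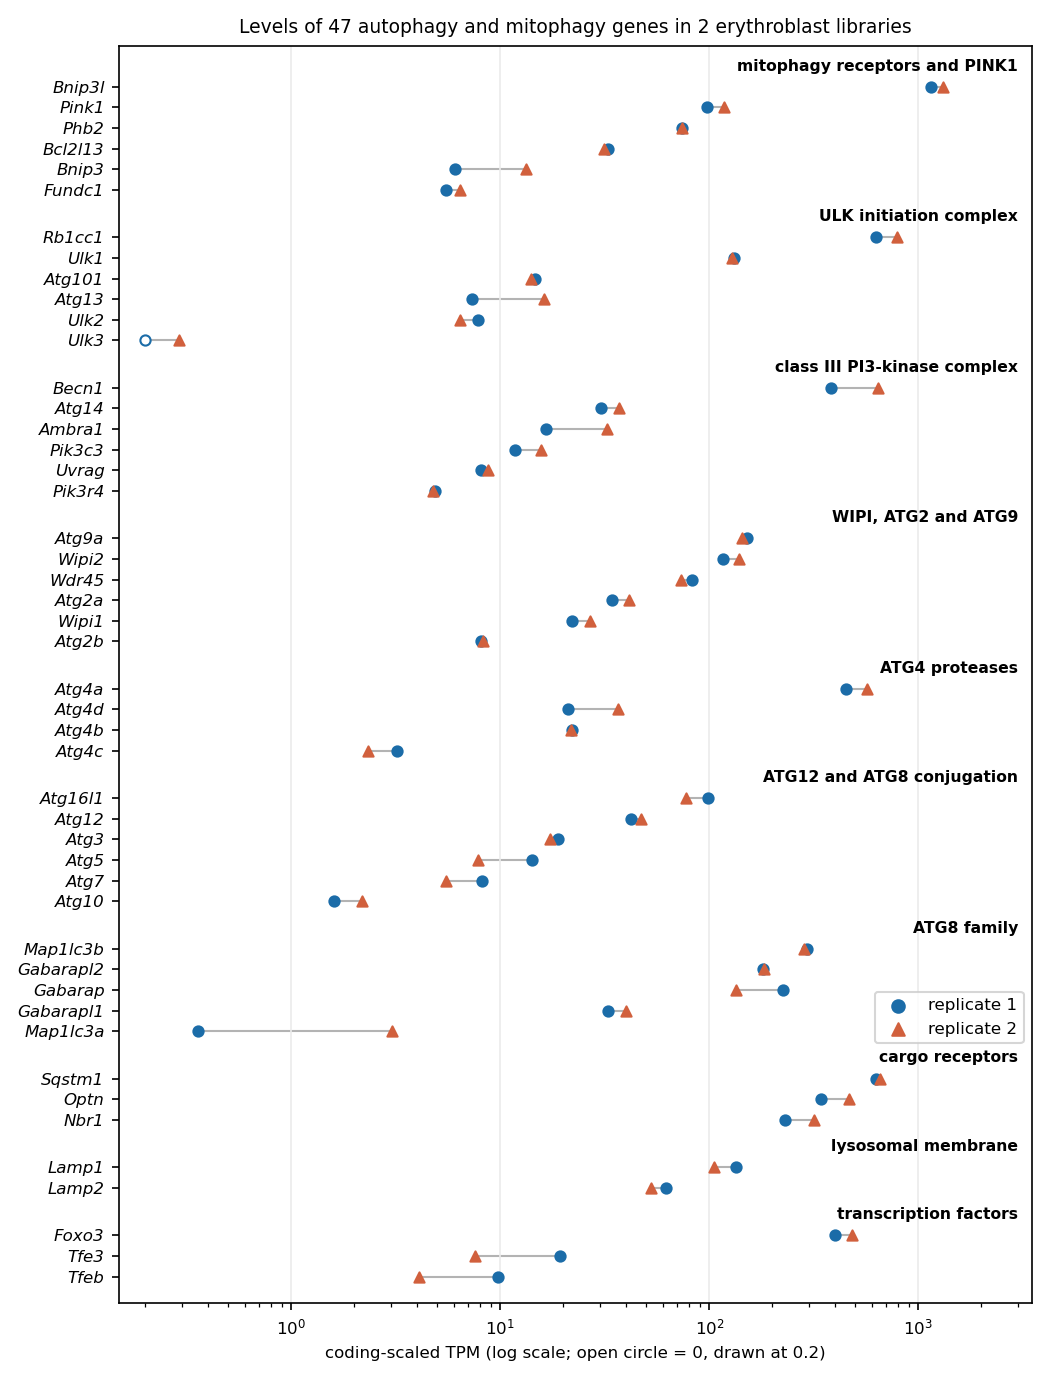
Level of each of the 47 members in coding-scaled TPM (log axis) in replicate 1 (circles) and replicate 2 (triangles), grouped by role and ordered by mean within a role. Bnip3l stands farthest right at 1149 and 1312, most roles have 1 or a few high members and several low ones, and Ulk3 and Map1lc3a stand farthest left.

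Ordered by mean level, neighbours were often too close to separate. Of 46 neighbouring pairs, 14 had libraries that did not overlap and 32 overlapped. Bnip3l stood clear of the next member, Rb1cc1, in both libraries. The order of Rb1cc1, Sqstm1, Becn1, Atg4a, Foxo3 and Optn was not separated at any step, and Optn stood clear of Map1lc3b.

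Among the 6 mitophagy genes, 1 receptor held most of the RNA. Bnip3l (chr14:66985239-67008877, minus strand, GRCm38), the receptor of the outer mitochondrial membrane that binds ATG8 proteins, had 1149 and 1312 coding-scaled TPM from 32193 and 15573 counts. It held 84.3% ± 0.136 of the TPM of the 6 genes and 18.3% and 18.2% of the summed level of all 47. Its paralog Bnip3, known as a receptor induced by low oxygen, had 6.04 and 13.2 coding-scaled TPM, and 144 and 60 counts. The Bnip3 transcripts differed between libraries: Bnip3-201, protein-coding, held 100% of the gene's TPM in replicate 1, while in replicate 2 a retained-intron transcript of 388 bases, Bnip3-204, held 74.4% on 18 counts. Fundc1, another outer membrane receptor, had 5.51 and 6.38. Neither Bnip3 nor Fundc1 was detected, and each stood below Bnip3l by far more than the spread of the libraries.

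Pink1 encodes the kinase that marks damaged mitochondria for the ubiquitin route. It had 97.3 and 117 coding-scaled TPM and held 7.34% ± 0.301 of the mitophagy TPM. Park2, its ubiquitin ligase partner and not a member, had 0.889 and 1.16 on 43 and 18 counts. Phb2, an inner membrane receptor, had 74.3 and 74.4, and Bcl2l13, an outer membrane receptor, had 32.7 and 31.5. The last pair matched closely between libraries. A small nucleolar RNA gene, Gm23547, lies within exons of Phb2 on the same strand and had 2062 and 1346 counts beside 1183 and 570 of Phb2, so the split of reads between them is uncertain. Counting only protein-coding transcripts, Bnip3l had 639 and 579 coding-scaled TPM and 75.01% ± 1.57 of the mitophagy total.

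Of the 6 ULK complex genes, 2 were detected. Rb1cc1 (chr1:6206197-6276648, plus strand), which encodes the scaffold FIP200, had 629 and 787 coding-scaled TPM, and Ulk1, the kinase that starts autophagosome formation, had 131 and 129. The related kinases were much lower, with Ulk2 at 7.82 and 6.38 and Ulk3 at 0 and 0.290, on 0 and 5 counts. Of the adaptor subunits, Atg101 had 14.6 and 14.1 coding-scaled TPM and Atg13 had 7.29 and 16.1. The adaptors thus stood far below Ulk1 and Rb1cc1, and Ulk1 far above its paralogs, in both libraries.

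In the class III PI3-kinase complex, 4 of 6 genes were detected. Becn1 (chr11:101285952-101302286, minus strand), which encodes the Beclin 1 subunit, had 381 and 643 coding-scaled TPM. The catalytic subunit gene Pik3c3 (VPS34) had 11.7 and 15.7, and the regulatory subunit gene Pik3r4 (VPS15) had 4.89 and 4.79. Over all transcripts Becn1 was thus more than 10 times each partner in each library. Atg14, the subunit that directs the complex to autophagy, had 30.3 and 36.8, and Uvrag, its counterpart in the endosomal complex, had 8.09 and 8.70. Ambra1, a Beclin 1 cofactor, had 16.6 and 32.3. Counting only protein-coding transcripts, that gap was smaller: Becn1 had 75.7 and 47.3 coding-scaled TPM, against 30.3 and 36.8 for Atg14 and 10.8 and 10.9 for Pik3c3.

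Of the membrane genes, 5 of 6 were detected. Atg9a, the scramblase carried on vesicles that seed the membrane, had 151 and 143 coding-scaled TPM, and Wipi2, the lipid-binding protein that recruits ATG16L1, had 117 and 138. Wdr45 (WIPI4) had 83.0 and 72.8, Wipi1 22.1 and 27.0. The lipid transfer gene Atg2a had 34.1 and 41.0, and its paralog Atg2b 8.09 and 8.27, below the detection limit. Atg2a stood above Atg2b in both libraries. Atg9a shares 1832 exon bases with Gm29253 on the same strand, which had 271 and 714 counts beside 6537 and 2495 of Atg9a, so its level carries an uncertain split too.

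Atg4a alone held most of the ATG4 RNA. These proteases trim ATG8 proteins before they are attached and release them afterwards. Atg4a (chrX:140956907-141164270, plus strand) had 452 and 567 coding-scaled TPM and 90.5% ± 0.279 of the TPM of the 4 genes. Atg4d had 20.97 and 36.7, Atg4b 22.1 and 21.8, and Atg4c 3.20 and 2.32. Over all transcripts Atg4b and Atg4d could not be ordered, and Atg4c was not detected. Over protein-coding transcripts only, Atg4b had 9.42 and 7.11, below Atg4d at 20.97 and 36.7. Atg4a-ps, a separately annotated copy, had 130.0 and 177.4 counts beside 12866 and 7578 of Atg4a.

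The conjugation enzymes were among the lower groups, with 3 of 6 detected. Atg16l1, which places the conjugation complex on the membrane, had 98.4 and 77.6 coding-scaled TPM, and Atg12, the ubiquitin-like protein joined to ATG5, had 42.2 and 46.99. Over protein-coding transcripts only, Atg16l1 had 32.5 and 25.1, below Atg12 in both libraries. Atg3, the E2-like enzyme of ATG8 conjugation, had 18.9 and 17.3. Atg5 had 14.2 and 7.83, Atg7, the E1-like enzyme of both conjugation systems, 8.17 and 5.51, and Atg10, the E2-like enzyme for ATG12, 1.599 and 2.18 on 34 and 24 counts. Atg5, Atg7 and Atg10 were not detected and stood below Atg3 in both libraries.

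In the ATG8 family, 4 of 5 genes were detected, and 3 of them held most of the TPM. Map1lc3b (LC3B; chr8:121590361-121598760, plus strand) had 293 and 285 coding-scaled TPM and 42.2% ± 2.98 of the family's TPM. Gabarapl2 had 179.7 and 182.0, or 26.4% ± 2.66, and Gabarap had 226 and 134, or 25.8% ± 7.16. Map1lc3b stood above both in each library, while the order of Gabarap and Gabarapl2 turned round between libraries. Gabarapl1 had 32.6 and 39.7 coding-scaled TPM, or 5.32% ± 1.22. Map1lc3a had 0.355 and 3.05 on 3 and 22 counts, or 0.261% ± 0.301, which is no more than its spread. By counts, which are not per length, Map1lc3b held 56.5% and Gabarap 12.1%.

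All 3 cargo receptors and both lysosomal membrane genes were detected. Sqstm1 (chr11:50199366-50210827, minus strand), which encodes p62, had 628 and 653 coding-scaled TPM. Optn (chr2:5020642-5064051, minus strand), which encodes optineurin, a ubiquitin receptor used in mitophagy, had 343 and 466, and Nbr1, a p62-related receptor, had 231 and 316. The receptors as a group held the highest median of the role groups, 343 and 466. Over protein-coding transcripts only, that median was 183 and 209, against 174 and 116 for the ATG8 family, so the lead was small in replicate 1. By that measure Sqstm1, at 162 and 146, stood below Nbr1 at 183 and 209 and Optn at 303 and 409. Lamp1 had 135 and 105, and Lamp2, which is needed for autophagosome clearance, had 62.0 and 52.5. Lamp1 stood above Lamp2 in both libraries. Of Lamp2 TPM, 77.9% and 74.8% came from Lamp2-202 and 19.2% and 16.2% from Lamp2-201, both protein-coding.

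Of the transcription factors, Foxo3 was detected and Tfeb and Tfe3 were not. Foxo3 (chr10:42181841-42276755, minus strand) had 399 and 482 coding-scaled TPM on 37757 and 21345 counts, the most counts of any member. All 5 of its transcripts are annotated as protein-coding, so its TPM could come from no other class. Foxo3-203 led at 91.7% and 81.8%. Tfe3 had 19.2 and 7.54 coding-scaled TPM, and Tfeb 9.77 and 4.06 on 87 and 60 counts. These are master regulators of lysosome and autophagy genes, and both stood far below Foxo3. Their replicate 1 levels leaned on short transcripts: Tfe3-209, a processed transcript of 372 bases, held 60.3% of Tfe3 TPM there on 32.2 counts and 0 in replicate 2, and Tfeb-215, a retained-intron transcript of 324 bases, held 71.3% of Tfeb TPM on 14.5 counts and 0 in replicate 2.

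Several of the most abundant members owed much of their TPM to transcripts that are not annotated as protein-coding. TPM is per length, so few reads on a short transcript weigh heavily. Of 30 members with several transcripts and a mean count of 100 or more, 9 (30%) had under 50% of their TPM in protein-coding transcripts, against a background of 18.6% of 5782 genes. A leading transcript that was not protein-coding in both libraries was found in 6 (20.0%), against 10.8%: Becn1, Sqstm1, Rb1cc1, Atg16l1, Ulk2 and Atg9a. The median share in protein-coding transcripts was 83.0% and 67.8%, against 88.0% and 86.2% for the background. By counts it was 90.7% and 88.6%, against 95.3% and 94.5%.

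**Figure D2:**
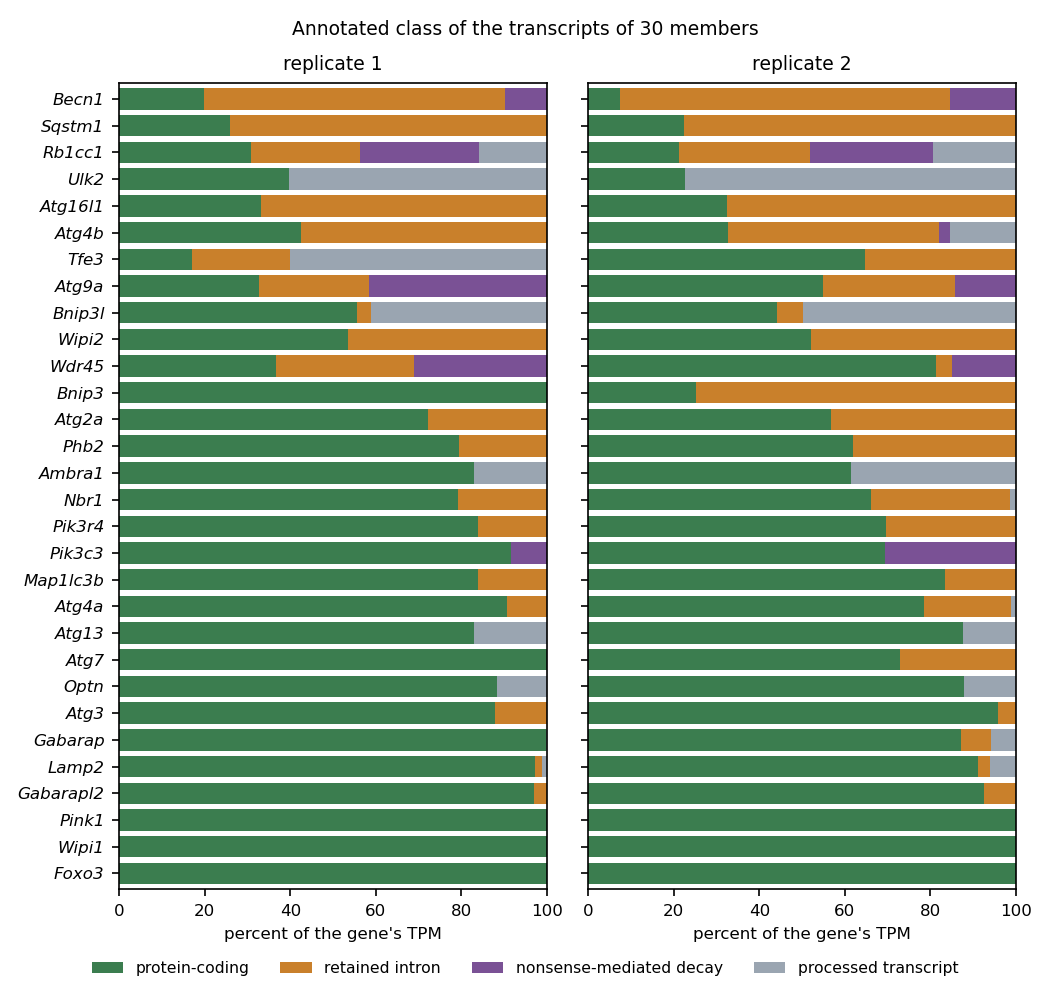
Percent of each gene's TPM in transcripts of 4 annotated classes, for the 30 members with several transcripts and a mean count of 100 or more, in replicate 1 (left) and replicate 2 (right). Becn1 and Sqstm1 at the top are mostly retained-intron transcripts in both libraries, while Foxo3, Wipi1 and Pink1 at the bottom are protein-coding throughout. Foxo3 and Pink1 have no annotated transcript of another class.

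Becn1 had the lowest mean protein-coding share, 19.9% and 7.35% of TPM. Its leading transcript in both libraries was Becn1-211, a retained-intron transcript of 487 bases with 39.1% and 56.4% of TPM on 673 and 943 of 8618 and 5595 counts. Sqstm1 had 25.9% and 22.3% in protein-coding transcripts. Its lead was Sqstm1-206 in replicate 1 (45.2%) and Sqstm1-203 in replicate 2 (56.2%), both retained-intron transcripts, of 457 and 582 bases. Sqstm1-202, the leading protein-coding transcript, held a steady 15.9% and 16.4%. Rb1cc1 had 30.7% and 21.3%, and its lead was Rb1cc1-214, annotated as a target of nonsense-mediated decay, at 27.9% and 28.8%. Atg16l1 had 33.1% and 32.4%, led by the retained-intron transcript Atg16l1-204 at 22.1% and 40.4%. These 4 genes were under 50% in both libraries, as were Ulk2 and Atg4b.

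The other members with a low share were Bnip3l, Atg9a, Ulk2, Atg4b and Tfe3. In Bnip3l, protein-coding transcripts held 55.6% and 44.2%. Bnip3l-201, protein-coding and 3238 bases long, led in replicate 1 with 55.5% and held 44.0% in replicate 2, where Bnip3l-206, a processed transcript of 446 bases, led with 48.2%, against 24.3% in replicate 1. Bnip3l-206 had 1088 and 1443 counts and Bnip3l-201 had 29549 and 13805, so most reads of the gene were on the protein-coding transcript. Atg9a had 32.7% and 55.0% in protein-coding transcripts, led by Atg9a-207 (nonsense-mediated decay) at 41.5% in replicate 1 and by Atg9a-203 (retained intron) at 23.1% in replicate 2. Ulk2 was led by Ulk2-202, a processed transcript, at 59.9% and 78.1%. Atg4b was led by the protein-coding Atg4b-201 at 42.3% in replicate 1 and by the retained-intron Atg4b-202 at 49.2% in replicate 2. Tfe3 was led by Tfe3-209 in replicate 1 and by the protein-coding Tfe3-204, at 49.0%, in replicate 2. Among members with fewer counts, Map1lc3a was led by the processed transcript Map1lc3a-202 in replicate 1 and the protein-coding Map1lc3a-201, at 84.9%, in replicate 2.

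When only protein-coding transcripts were counted, the order of the members changed. Bnip3l stayed at the top with 609 coding-scaled TPM as the mean of both libraries, followed by Foxo3 at 440.3, Atg4a at 428, Optn at 356 and Map1lc3b at 242. Rb1cc1 took place 7 (180.4) in place of 2, Sqstm1 place 10 (154) in place of 3, and Becn1 place 16 (61.5) in place of 4. A gene with only protein-coding transcripts in the annotation, such as Foxo3, could lose no TPM in this step. The median member stood at 30.9, against 34.7 over all transcripts.

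**Figure D3:**
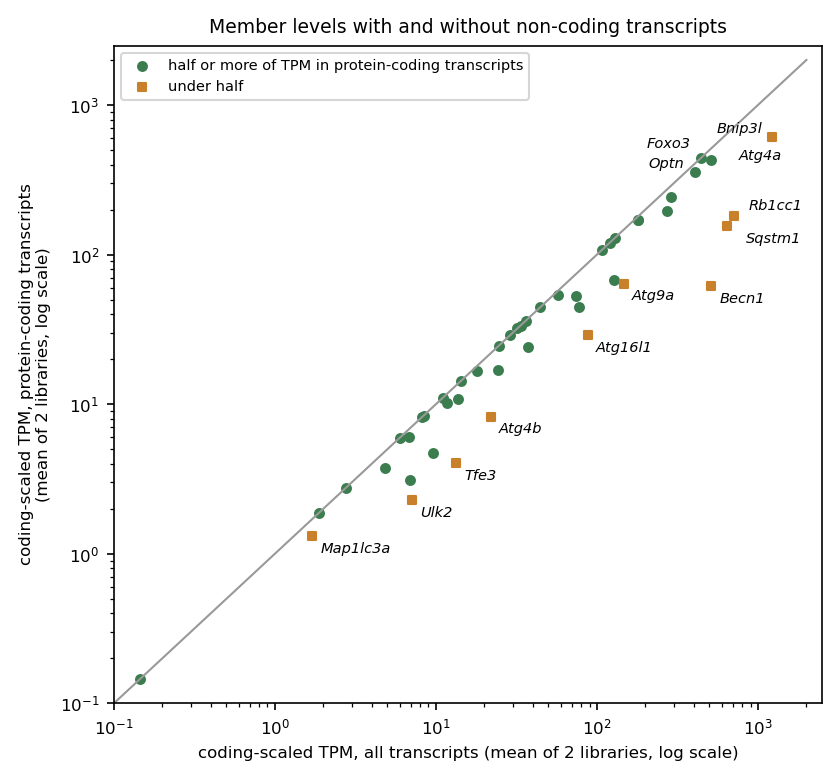
Mean coding-scaled TPM of each member over all its transcripts (x axis) and over its protein-coding transcripts only (y axis), both on log axes, with the line of equality. Squares mark members with under 50% of TPM in protein-coding transcripts. Becn1, Sqstm1 and Rb1cc1 lie far below the line, and Foxo3, whose transcripts are all annotated as protein-coding, lies on it.

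The leading transcript differed between libraries in 13 of the 30 members (43.3%), against a background of 37.0%. Beside those above, these were Map1lc3b, led by the protein-coding Map1lc3b-205 at 36.1% in replicate 1 and Map1lc3b-201 at 37.9% in replicate 2, and Nbr1, led by Nbr1-206 at 29.8% and Nbr1-204 at 26.8%. Both were near ties in replicate 1, where Map1lc3b-201 held 35.4%. Nbr1-206 and Nbr1-204 had 4343 and 4271 counts there. The quantifier's own error, as posterior standard deviation, was 276 and 265 counts, so that lead was not separated. Atg2a was led by Atg2a-204 at 53.5% and Atg2a-201 at 34.8%, Ambra1 by Ambra1-202 at 41.0% and Ambra1-201 at 33.2%, and Pik3r4 by Pik3r4-210 at 55.7% and Pik3r4-201 at 52.1%. In these 5 genes both leads were protein-coding. Pik3c3 was led by the protein-coding Pik3c3-203 at 57.5% in replicate 1 and by Pik3c3-204, annotated for nonsense-mediated decay, at 30.7% in replicate 2. Wdr45 was led by the retained-intron Wdr45-207 at 32.1% in replicate 1 and by the protein-coding Wdr45-204 at 33.7% in replicate 2. At lower counts, Fundc1 was led by Fundc1-201 at 100% in replicate 1 and Fundc1-205 at 88.8% in replicate 2, both protein-coding. Other leads were the same in both libraries: Gabarapl2-201 at 97.0% and 92.6%, Gabarap-202 at 79.0% and 66.6%, Pink1-201 at 68.3% and 80.1%, and Phb2-201 at 79.4% and 61.8%. Gabarapl1 and Bcl2l13 had 1 transcript in the tables.

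Most members differed little between the libraries. Ratios are given as log2 of replicate 2 over replicate 1, from rounded expected counts with TMM scaling, for the 41 members whose mean count reached 100. Only Atg13 was at least 2-fold apart, 1 of 41, against a background of 8.44% of 7658 nuclear protein-coding genes and 10.4% of all genes. Atg13 had 321 and 382 counts, a log2 ratio of 1.14 with a 95% counting interval of 0.93 to 1.36. Within 1.5-fold were 36 of 41, against 76.2% of the background. The median ratio was 0.02, against -0.03 for the background, with 23 members above 0 and 18 below, against 47.6% and 52.4% of the background. The intervals of 29 of 41 members excluded 0, near the 69.3% of the background, and these intervals cover counting error only. With 1 library on each side there is no test.

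**Figure D4:**
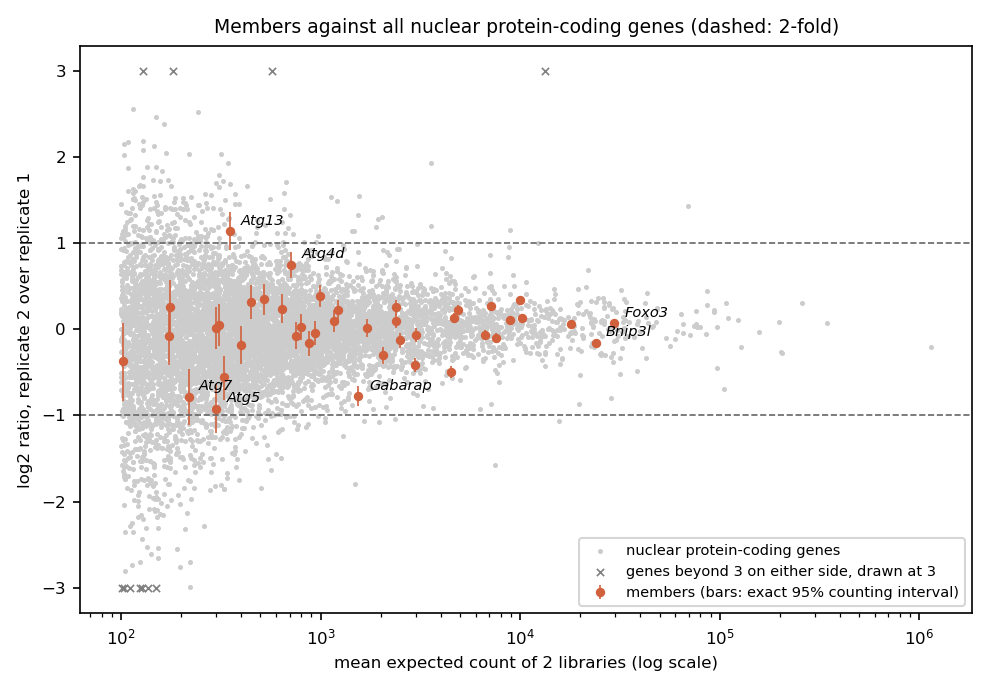
Log2 ratio of replicate 2 over replicate 1 against the mean expected count (log axis) for 41 members (coloured, bars are exact 95% counting intervals) and all nuclear protein-coding genes past the same count minimum (grey, crosses for those beyond the axis). Only Atg13 lies beyond a dashed 2-fold line, and the abundant Foxo3 and Bnip3l lie near 0.

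Next after Atg13 came Atg5 at -0.92 (-1.21 to -0.64), Atg7 at -0.78 (-1.11 to -0.46), Gabarap at -0.77 (-0.89 to -0.65) and Atg4d at 0.75 (0.60 to 0.91). Atg5 and Atg7 are both conjugation genes with few counts, 467 and 133 for Atg5 and 332 and 104 for Atg7, while Gabarap had 2355 and 742. The ratio of Bnip3l was -0.15 (-0.18 to -0.13) and that of Foxo3 0.07 (0.05 to 0.09). The 6 class III PI3-kinase genes had ratios of 0.05 to 0.39, and the intervals of Pik3r4 (-0.06 to 0.58) and Uvrag (-0.19 to 0.29) included 0. The 3 cargo receptors had ratios of 0.11 to 0.34, Lamp1 of -0.41 and Lamp2 of -0.30. With library size alone, the member past 2-fold was Atg5, lower in replicate 2, in place of Atg13. By coding-scaled TPM, 3 of 41 were past 2-fold, against 12.6% of the background: Atg13, Bnip3 and Tfe3, and the last pair changed transcripts as described above.

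Beyond the members, 112 further genes of the pathway were measured, and 56 were detected. Their median was 18.6 and 15.4 coding-scaled TPM, at percentile 67.4. Of 95 whose mean count reached 100, 2 were at least 2-fold higher in replicate 2, against a background of 3.04%, and 6 at least 2-fold lower, against 5.39%. Of 27 other receptor, mitophagy and membrane genes 12 were detected, led by Tax1bp1, a ubiquitin receptor, at 547 and 640, Calcoco1 at 175 and 290, and Vmp1, a membrane scramblase, at 172 and 227. The lowest was Tecpr1 at 0.977 and 0.435.

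The lysosome's acidification genes were the most complete of these lists, with 16 of 18 detected. Atp6v0a1, a proton pump subunit, had 757 and 543 coding-scaled TPM, Atp6ap1 283 and 151, and Atp6v1e1 164 and 214, while Clcn7 was lowest at 8.09 and 10.3. Over protein-coding transcripts only, Atp6v0a1 had 475 and 159, Atp6ap1 165 and 79.9, and Atp6v1e1 164 and 214, so Atp6v1e1 stood above Atp6v0a1 in replicate 2. Of 20 hydrolases 10 were detected, led by the cathepsins Ctsb at 431 and 435 and Ctsd at 279 and 298, then Psap at 251 and 206, with Glb1 lowest at 2.58 and 1.74. Of 18 hydrolases past the count minimum 1 had a ratio above 0, with a median of -0.24, and of 18 acidification genes 6, with a median of -0.23. Of all nuclear protein-coding genes 47.6% were above 0, with a median of -0.03. Over the same libraries the marker medians were -0.37 for erythroid genes, -0.21 for neutrophil genes and -0.11 for macrophage genes. Above 0 were 1 of 8 erythroid, 3 of 8 neutrophil and 2 of 6 macrophage genes. Of the 2 megakaryocyte genes past the count minimum, Itga2b had 0.33 and Vwf -0.01, a median of 0.16. The megakaryocyte genes under it went both ways. Pf4 had -1.62 on 80 and 14 counts, Ppbp -3.69 on 24 and 1, and Gp9 0.11 on 50 and 29. The 1 T and NK cell gene past the minimum had -0.60. The part of cell makeup in these ratios was not tested.

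Of 13 fusion genes 6 were detected. Vamp8 led at 107.9 and 96.0 coding-scaled TPM, then Vps16 at 39.4 and 50.3 and Rab7 at 31.0 and 37.9, with Vps18 lowest at 3.20 and 4.06. Over protein-coding transcripts only, Vps16 had 5.78 and 8.85, below Rab7 at 30.9 and 37.9. Of 34 MTORC1, AMPK and nutrient-sensing genes 12 were detected. Nprl3, a subunit of the GATOR1 complex that restrains MTORC1, led at 197 and 173, then Stk11 (LKB1) at 160 and 180 and Sesn1 at 119 and 142. Over protein-coding transcripts only, Nprl3 had 13.2 and 8.27, below Stk11 at 122 in each library and Sesn1 at 119 and 142. Castor1 was lowest, with 0 counts in both libraries.

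**Figure D5:**
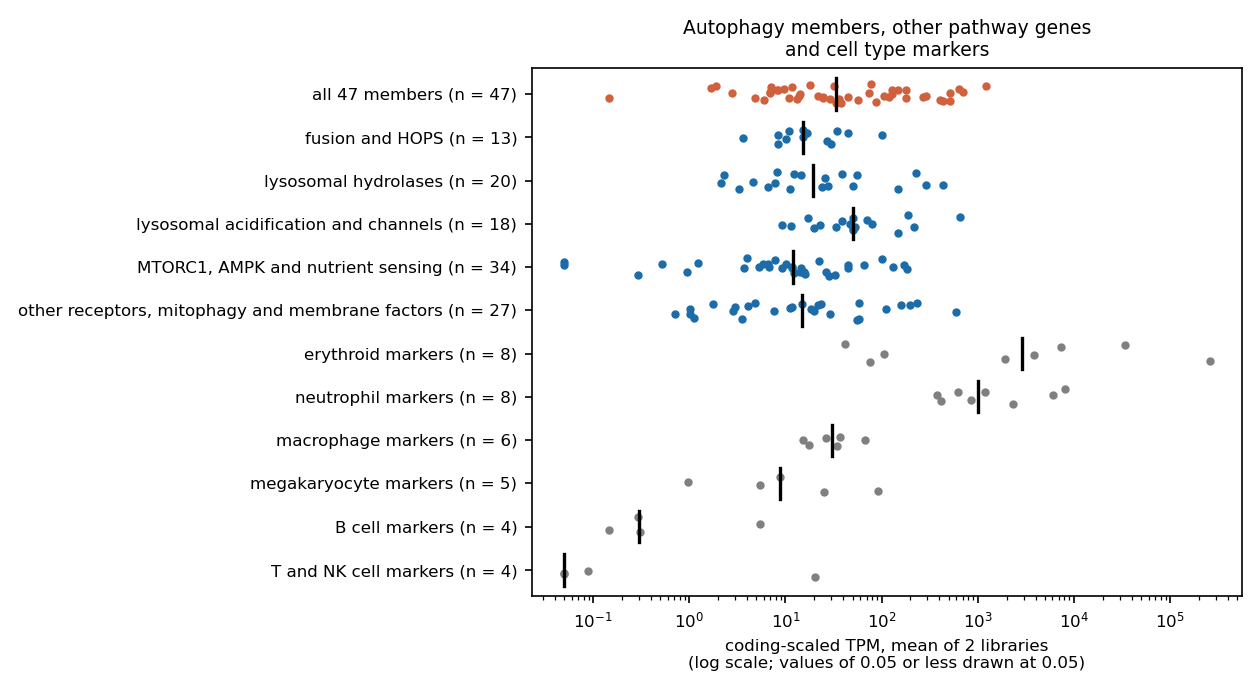
Mean coding-scaled TPM (log axis) of each member, of 5 lists of other pathway genes and of 6 lists of cell type markers, with a bar at the median of each list. The 47 members run from 0.145 to 1231, Castor1 and Prkaa2 of the nutrient-sensing list lie below them, and the erythroid and neutrophil markers stand highest.

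Further features limit single values. No member was marked as sharing reads by the quantifier's own error: the highest posterior standard deviation was 0.573 times the square root of the count. This holds for whole genes and not for the split of reads among their transcripts. Exons of 12 members overlap a gene on the opposite strand, and no such partner had more counts than its member in both libraries. The largest shared stretch was between Becn1 and Cntd1, 3104 bases, and Cntd1 had 75 and 92 counts. Kri1 shares 1405 bases with Atg4d and had 435 and 248 counts beside 749 and 680. The strand setting of the counts is not given in the sources used here, so reads of such pairs may not be fully separated.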

How the data were processed

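Each library had a gene table and a transcript table, 1 library per file. The deposited values, per the file headers, are expected counts (estimated counts that need not be whole), their posterior mean and standard deviation, TPM over all listed features, and the percent of a gene's TPM in each transcript (IsoPct). The labels name mm10 as assembly, and text records deposited with the tables name GENCODE M4. The software for alignment and quantification, and its strand setting, is not given in the sources used here. GENCODE M21, on the same assembly (GRCm38), gave names and classes for 98.0% of 43346 genes. Features that are no Ensembl gene held 8 and 28 counts and were left out.

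TPM was rescaled to 1000000 over 21461 nuclear protein-coding genes. Expected counts were rounded, and ratios were scaled by edgeR 4.0.16 (TMM, R 4.3.3) over 12757 genes whose mean count reached 10, with exact Clopper-Pearson 95% intervals. These cover counting error only, as no molecular identifiers are stated. The ratio step was tested on simulated counts that held counting error only. That test says nothing of further spread between real libraries. A gene was marked as sharing reads when its posterior standard deviation passed 3 times the square root of its count. DESeq2 1.42.0 size factors were an alternative. Intervals came from scipy 1.17.1, tables from pandas 2.3.3 and numpy 2.4.6, and figures from matplotlib 3.10.9, in Python 3.11.15.

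No test was possible with 1 group, and no p-value is given. The rule for the members uses no measured value, but the members and lists were chosen with earlier results of these data known. Named are all members by role, members 2-fold apart or not detected, leading transcripts that differ, are not protein-coding or belong to mitophagy or ATG8 genes, and the 3 highest and the lowest gene of each other list. Other genes named were chosen after their values were seen, as was the level over protein-coding transcripts only. Park2 was matched through a RefSeq synonym. Vamp7 and Map1lc3c were not analysed here.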

Additional observations from a re-analysis of the deposited data

How the results depend on the processing

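The number of members detected was 31 and became 19 at a limit of 5 TPM, and 35 to 32 with each library alone. At 10 rounded counts in both libraries it was 45. The shares of all genes at 5 TPM and at 10 counts are not given here. The median level of 34.7 became 54.1 with adult globins left out of the scaling, 3.11 in deposited TPM and 30.9 over protein-coding transcripts only, an alternative chosen after seeing the data, and ran from 32.6 to 36.8 with each library alone. The median percentile of 80.5 became 77.0 among genes with TPM above 0 in both libraries and 88.3 among all nuclear protein-coding genes. The median log2 ratio of 0.025 became 0.031 with DESeq2 size factors, -0.14 with library size only, 0.058 by coding-scaled TPM, 0.038 with no count minimum and 0.067 at a minimum of 500. Library size alone moved the median of the nuclear protein-coding genes to -0.19, so the members stayed above it. Members at least 2-fold apart numbered 1 and became 3 by coding-scaled TPM, 2 with no count minimum, 0 at a minimum of 500 and 5 at 1.5-fold. Of the nuclear protein-coding genes 12.6% were past 2-fold by coding-scaled TPM and 76.2% were within 1.5-fold. Their shares at the other count minimums are not given here.

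The Bnip3l share of 84.3% became 79.7% by counts, 84.0% by posterior mean TPM and 75.01% over protein-coding transcripts, and ran from 84.2% to 84.4% with each library alone. The Map1lc3b share of 42.2% became 56.5% by counts and 39.2% over protein-coding transcripts, with 40.1% to 44.3% by library. Gabarap became 12.1% by counts and ran from 20.8% to 30.9%, Gabarapl1 from 4.46% to 6.18%, Gabarapl2 from 24.5% to 28.3% and Map1lc3a from 0.0486% to 0.474%. The median protein-coding share of 75.4% became 89.6% by counts and ran from 67.8% to 83.0% by library. Members under 50% numbered 9, became 5 by counts and were 9 and 8 by library. The share of all genes under 50% by counts is not given here, so the 5 members have no background. The cause of the shifts between settings was not tested. No paired analysis was possible because the series has 1 group only. Members with few counts, such as Ulk3, Map1lc3a and Atg10, are limited by depth.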

Other observations

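Over all transcripts, the GATOR1 complex, which restrains MTORC1, had very unequal levels of its 3 genes. These were singled out after their values were seen. Nprl3, whose introns hold enhancers of the alpha globin genes, had 197 and 173 coding-scaled TPM, against 10.4 and 1.31 for Nprl2 and 6.31 and 12.04 for Depdc5. Protein-coding transcripts held 6.72% and 4.77% of Nprl3 TPM. Over protein-coding transcripts only, Nprl3 had 13.2 and 8.27, Nprl2 5.95 and 1.31, and Depdc5 4.71 and 8.56. Nprl3 thus did not stand above Depdc5 in replicate 2, and most of the gap lay in other transcripts of Nprl3. Nprl2 rested on 143 and 13 counts.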
